A study of Mus musculus with 10 samples.

Results

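The comparison described here is that of 7-mo-old with 2-mo-old intermediate lobes (IL) of p27-/- mice, which uses 5 of the 10 RNA-seq libraries of the study, 3 of 7 months and 2 of 2 months. The libraries were chosen by genotype and age as their titles give them, and the genes by one rule, a mean normalised value of at least 10 over the 10 libraries on the linear scale, which left 16556 of 39021 gene IDs. The p27-/- mice lack the cell cycle inhibitor p27, the product of *Cdkn1b*, in every cell of the body and not in the pituitary alone. Their IL is known to become hyperplastic and later tumorous as the mice age. Whole dissected lobes from a mixed genetic background were used, with no other treatment in any group. The other 5 libraries come from wild-type (WT) lobes, 3 of 2 months and 2 of 7 months, and served as the background for age.

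The IL is the part of the pituitary that lies between the anterior and the posterior lobes, and in the mouse its endocrine cells are melanotrophs. These cells make the hormone precursor POMC and cleave it with the convertases PC1 and PC2 into melanocyte-stimulating hormone, under inhibition by dopamine and GABA from hypothalamic nerve endings. Melanotrophs normally stop dividing after birth, and p27 helps to hold them there by blocking cyclin-dependent kinases. SOX2-positive stem cells line the cleft between the IL and the anterior lobe.

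All values are log2 normalised values, on which a difference of 1 is a doubling. Their depth is unknown and the transform behind them is not given in the sources used here, so a fold change is a difference on this scale and may understate that of low genes. Library maxima ran from 19.85 to 22.14, and the median over the genes tested lay between 6.46 and 6.59. *Cdkn1b*, the disrupted gene, lay at 7.91 and 8.06 in p27-/- lobes at 2 months and at 8.43, 8.34 and 8.21 at 7 months. All 5 values were below the lowest WT value, 8.57, but they were not near the bottom of the scale, and a single value per gene does not show which exons the signal came from. The melanotroph label was borne out in all 5 libraries by *Pomc* at 15.45 to 16.17 and *Pcsk2*, which encodes PC2, at 13.56 to 13.98. In bulk lobes, fewer cells of a type and less RNA per cell cannot be told apart. *Xist*, transcribed from the silenced X of female cells, was high in 1 of 2 p27-/- libraries at 2 months (14.75) and in 1 of 3 at 7 months (15.02). Among WT libraries it was high in 0 of 3 at 2 months and in 2 of 2 at 7 months, where the study's record lists both sexes, so the WT age difference is also a difference in sex and its 7-mo-old libraries go against that record in 1 case.

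Few single genes separated the ages beyond the spread between libraries. In p27-/- lobes 8 of the 16556 genes were called at an adjusted p under 0.05 (limma, Benjamini-Hochberg), which is 0.0483% of the genes tested, and all 8 rose with age. At an unadjusted p under 0.05, 953 genes were higher (5.76%) and 683 were lower (4.13%) at 7 months. The ages did not overlap in 2530 genes that were higher (15.3%) and in 2434 that were lower (14.7%), and these shares are the background for every count below. The median change over all genes tested was -0.00344. The p27-/- libraries of 2 months differed from each other by a root mean square of 0.283, 7-mo-old ones by 0.401 to 0.426, and libraries of different ages by 0.370 to 0.453. The count of 8 depended on single libraries. It was 1 without p27-/- 2-month replicate 1, 0 without replicate 2 of that group, 3 without p27-/- 7-month replicate 2 and 26 without replicate 3. The shared spread moved it too, to 18 and 32 without WT 2-month replicates 2 and 3 and to 3 without either WT 7-month library.

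**Figure D1:**
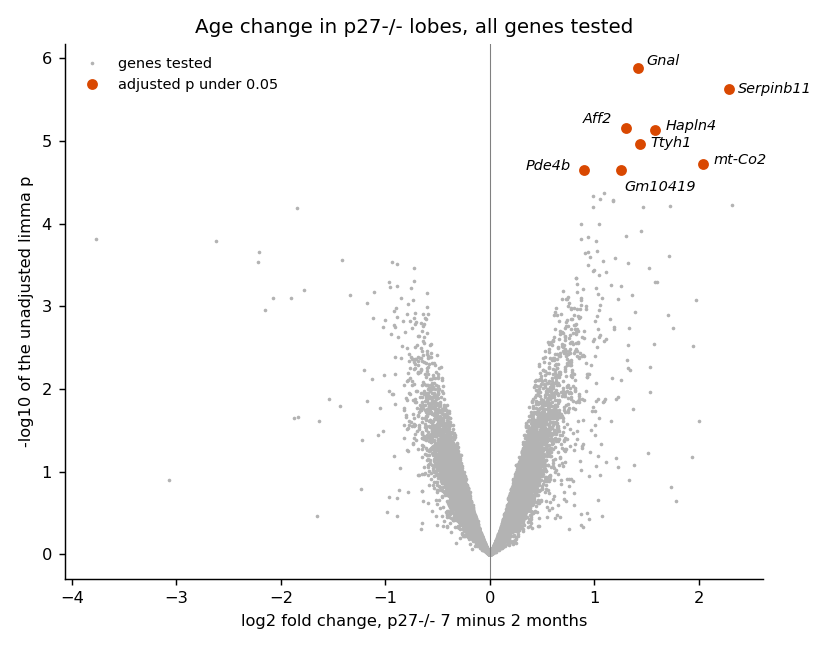
Log2 fold change between 7 and 2 months in p27-/- lobes (x axis) against -log10 of the unadjusted limma p (y axis) for the 16556 genes tested. The 8 genes with an adjusted p under 0.05 are orange and lie on the right, at changes from 0.90 to 2.29.

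The 8 genes that rose included *Gnal* and *Pde4b*, which act on the second messenger cAMP, and cAMP itself was not measured. *Gnal* encodes the G protein subunit that couples olfactory and dopamine receptors to adenylyl cyclase (ENSMUSG00000024524; GRCm38 chromosome 18, 67088298 to 67226792). It lay at 8.33 and 8.63 at 2 months and at 9.69, 9.97 and 10.03 at 7 months. The change was 1.41 (SE 0.18, adjusted p = 0.0196), a 2.66-fold rise. *Pde4b* encodes a phosphodiesterase that breaks cAMP down (ENSMUSG00000028525; chromosome 4, 102087332 to 102607275). It went from 8.28 and 8.63 to 9.34, 9.31 and 9.40, a rise of 0.90 (SE 0.15, adjusted p = 0.0461). The 7-mo-old libraries nearly coincided for *Pde4b*, and the ages did not overlap for either gene.

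The 2 largest rises among the 8 were those of a protease inhibitor gene and a mitochondrial gene. *Serpinb11*, a member of the clade B serpins (ENSMUSG00000026327; chromosome 1, 107362314 to 107380475), lay at 4.01 and 4.16 at 2 months and at 6.78, 6.70 and 5.64 at 7 months. Its rise of 2.29 (SE 0.31, adjusted p = 0.0196) corresponds to 4.89-fold on this scale, from a low level. *mt-Co2* encodes subunit 2 of cytochrome c oxidase and is transcribed from the mitochondrial genome (ENSMUSG00000064354). It lay at 11.21 and 10.48 at 2 months and at 12.97, 12.98 and 12.72 at 7 months, a rise of 2.04 (SE 0.33, adjusted p = 0.0461).

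Another 3 genes that rose are known from the nervous system. *Ttyh1*, a tweety family membrane protein gene (ENSMUSG00000030428; chromosome 7, 4119530 to 4135407), went from 8.56 and 9.06 to 10.45, 10.39 and 9.89, a rise of 1.43 (SE 0.22, adjusted p = 0.0356). *Hapln4*, which encodes a link protein of the hyaluronan matrix around neurons (ENSMUSG00000007594; chromosome 8, 70083529 to 70090862), went from 4.75 and 4.76 to 6.70, 6.15 and 6.16, a rise of 1.58 (SE 0.24, adjusted p = 0.0305). *Aff2*, an X-linked gene of the AF4/FMR2 family (ENSMUSG00000031189; chromosome X, 69360190 to 69872054), went from 7.78 and 7.83 to 9.04, 9.08 and 9.21, a rise of 1.30 (SE 0.19, adjusted p = 0.0305). For *Aff2* and *Hapln4* the 2-mo-old libraries nearly coincided although one was *Xist*-high and the other not. The last was the predicted gene *Gm10419* (ENSMUSG00000072769; chromosome 5, 108367937 to 108374483), at 4.38 and 4.39 at 2 months and at 5.36, 5.78 and 5.79 at 7 months, a rise of 1.26 (SE 0.21, adjusted p = 0.0461).

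In WT lobes 3 of the 8 genes also rose with age, and the other 5 did not pass the threshold. There *Gm10419* changed by 1.64 (adjusted p = 0.00893), *Hapln4* by 1.31 (adjusted p = 0.0289) and *Gnal* by 1.00 (adjusted p = 0.0292). The WT changes were 0.82 for *Aff2* (adjusted p = 0.0636) and 0.64 for *Serpinb11* (adjusted p = 0.276), and both older WT libraries lay above all younger ones for these genes too. The changes were -0.19 for *Pde4b*, -0.24 for *Ttyh1* and -0.68 for *mt-Co2* (adjusted p = 0.286 to 0.579). The test of the difference between the genotypes' age changes gave 2.72 for *mt-Co2* (SE 0.47, adjusted p = 0.0658), 1.68 for *Ttyh1* (SE 0.31, adjusted p = 0.0687), 1.09 for *Pde4b* (SE 0.21, adjusted p = 0.0764) and 1.65 for *Serpinb11* (SE 0.44, adjusted p = 0.123). Over all genes this test called 0 (0%), with 2675 genes at an unadjusted p under 0.05 (16.2%), so none of these age changes was shown to differ between genotypes. The call for *Gnal* held under 12 of 13 alternative settings other than leaving out a library and without 8 of 10 single libraries, that for *mt-Co2* under 2 of 13 and without 4 of 10, and that for *Pde4b* under 3 of 13 and without 2 of 10. It held for *Serpinb11* under 11 of 12 and without 7 of 10, for *Aff2* under 8 of 13 and without 5, for *Hapln4* under 9 of 13 and without 4, for *Ttyh1* under 8 of 13 and without 4, and for *Gm10419* under 3 of 12 and without 3.

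**Figure D2:**
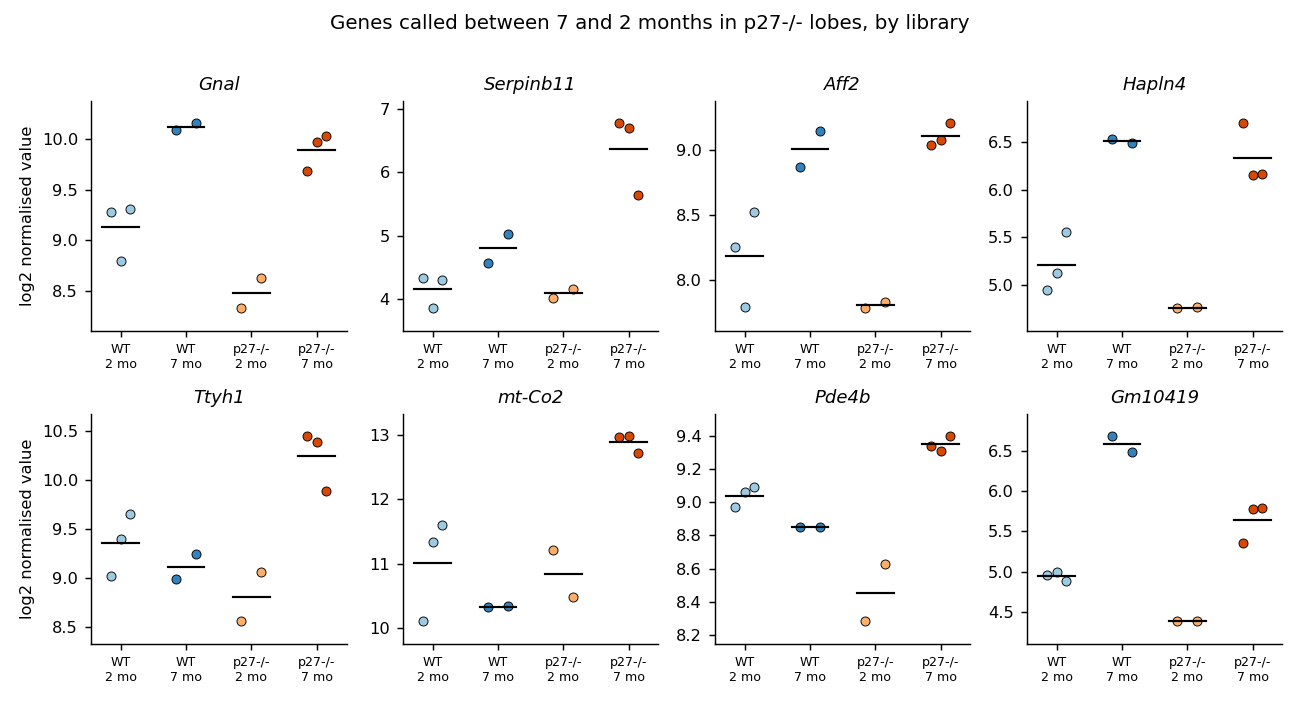
Log2 normalised value (y axis) of each of the 8 genes that rose, by library, in WT and p27-/- lobes at 2 and 7 months (2 or 3 libraries per group). Points are libraries and lines are group means, and each panel has its own y axis that does not start at 0. *Gnal*, *Serpinb11*, *Aff2*, *Hapln4* and *Gm10419* are higher at 7 months in both genotypes, whereas *mt-Co2*, *Ttyh1* and *Pde4b* are higher at 7 months in p27-/- lobes and lower on average in WT lobes.

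The mitochondrially encoded genes were higher together in 7-mo-old p27-/- lobes. These 13 genes encode the respiratory chain subunits that mitochondria make themselves, and they are transcribed together from the circular mitochondrial genome. In all 13 the 3 libraries of 7 months lay above both libraries of 2 months, and 12 of 13 had an unadjusted p under 0.05, against the background of 5.76%. Their median change was 1.32 (range 0.75 to 2.04), and *mt-Co2* alone was called. Under quantile normalisation 11 of 13 were higher, with *mt-Cytb* and *mt-Co1* turned to slightly lower values (-0.065 and -0.27), while rescaling to equal totals without mitochondrial genes left 13 of 13 higher with a median of 1.22.

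Among complex I subunits, *mt-Nd4l* went from 11.29 and 10.99 at 2 months to 12.55, 12.46 and 12.75 at 7 months, a change of 1.45 (SE 0.28, adjusted p = 0.0956). *mt-Nd5* went from 15.47 in both 2-mo-old libraries to 16.84, 16.91 and 16.85, a change of 1.39 (adjusted p = 0.188). For both genes the p27-/- libraries of an age lay close together, whereas the 3 WT libraries of 2 months ran from 10.62 to 11.87 for *mt-Nd4l* and from 15 to 16.08 for *mt-Nd5*. *mt-Nd4* changed by 1.34, *mt-Nd2* by 1.32, *mt-Nd1* by 1.31, *mt-Nd6* by 1.11 and *mt-Nd3* by 0.75, with adjusted p-values of 0.125 to 0.293. *mt-Cytb*, the complex III subunit, went from 15.89 and 15.69 to 16.87, 17.33 and 17.14, a change of 1.32 (adjusted p = 0.233). The ATP synthase subunit genes *mt-Atp6* and *mt-Atp8* changed by 1.34 and 1.19 (adjusted p = 0.202 and 0.203). Of the other cytochrome oxidase genes, *mt-Co1* changed by 0.82 (adjusted p = 0.495). *mt-Co3* changed by 1.08 with an SE of 1.09 (adjusted p = 0.795), and its WT values ran from 6.23 to 11.78.

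In WT lobes all 13 of these genes were lower at 7 months, with a median of -0.96, in the comparison that also differs in sex. The difference between genotypes had an unadjusted p under 0.05 for 12 of 13 genes, against 16.2% of all genes, and was 2.43 for *mt-Nd2*, 2.12 for *mt-Nd6* and 2.21 for *mt-Nd4l* (adjusted p = 0.0658, 0.0658 and 0.0687). Summed on the linear scale, mitochondrial genes took 31.5% and 28.1% of the 2-mo-old p27-/- libraries and 38.7%, 48.0% and 45.2% of those of 7 months. The share ran from 24.2% to 41.1% in WT libraries of 2 months, so 1 of these lay above the lowest 7-mo-old p27-/- library, and it was 19.3% and 28% in WT libraries of 7 months. The ribosomal RNA genes *mt-Rnr1* and *mt-Rnr2*, chosen after their values were seen, make up most of that share and changed by 1.21 (SE 0.61, adjusted p = 0.541) and 0.87 (SE 0.86, adjusted p = 0.789). All 13 genes lie in the lowest decile of exonic GC content. Over the 14172 genes with a GC value, GC content and the p27-/- age change had a Spearman correlation of -0.371 (0.293 in WT; genes are not independent replicates), and the median change was 0.166 in the lowest decile and -0.171 in the highest. After a GC correction the 13 genes had a median change of 1.03 and 10 had an unadjusted p under 0.05.

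**Figure D3:**
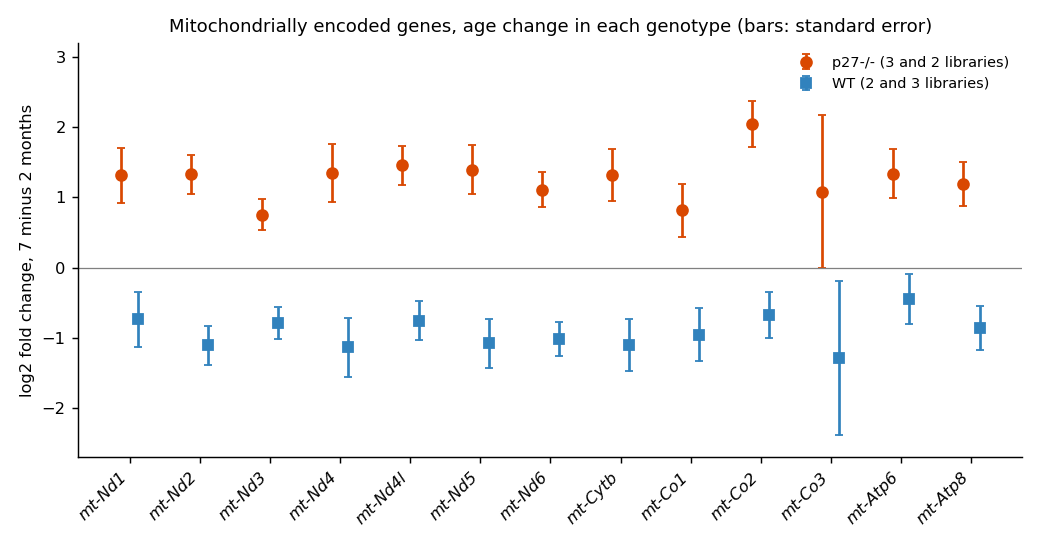
Log2 fold change between 7 and 2 months (y axis) for the 13 mitochondrially encoded genes, in p27-/- lobes (orange circles, 3 against 2 libraries) and WT lobes (blue squares, 2 against 3), with bars of 1 standard error. The p27-/- points lie between 0.75 and 2.04 and the WT points are all below 0.

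Nuclear genes for the respiratory complexes had mostly negative changes in both genotypes. In WT lobes 2 of 23 nuclear subunit genes were higher and 21 lower at 7 months, with a median of -0.27. In p27-/- lobes 7 of the 23 were higher and 16 lower, with a median of -0.14, and none was called. At an unadjusted p under 0.05 0 were higher and 4 were lower. These were *Sdhd* (-0.73, adjusted p = 0.169) and *Sdhc* (-0.62, adjusted p = 0.313), which encode the membrane anchors of succinate dehydrogenase, *Cox4i1* of cytochrome oxidase (-0.62, adjusted p = 0.305) and *Ndufv1* of complex I (-0.62, adjusted p = 0.448). *Sdhd* lay at 7.51 and 7.70 at 2 months and at 6.83, 6.75 and 7.03 at 7 months, and it was also lower with age in WT lobes (-0.57). The 18 tested genes that copy, transcribe and translate the mitochondrial genome had a median of -0.05, with 8 higher and 10 lower. The 1 with an unadjusted p under 0.05 was *Lars2*, the mitochondrial leucyl-tRNA synthetase gene, which went from 11.73 and 12.02 to 10.05, 10.72 and 11.32 (-1.18, adjusted p = 0.181). *Lars2* changed by 0.34 in WT lobes, and the difference was -1.515 (SE 0.40, adjusted p = 0.123).

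Immediate early genes were among the genes with the lowest changes, and none of them was called. They encode transcription factors such as FOS and EGR1 and feedback phosphatases such as DUSP1, are switched on within minutes by cAMP, calcium or MAPK signals, and also respond to handling of tissue. A classical route runs through CREB, which binds the cAMP response element. The 250 bases before the annotated start are printed for *Fos*, *Nr4a1* and *Dusp1*, which were among those that differed most between the ages. *Egr1*, which differed more, had no promoter among those used here. The letters TGACG, the core of the cAMP response element, are in capitals on either strand (CGTCA when read from the other strand, overlapping cores merged). The sequences are those of RefSeq on GRCm38.p6, 5′ to 3′ along the gene. They come from chr12:85473640-85473889 on the plus strand, chr15:101266596-101266845 on the plus strand (a start inside the annotated span of *Nr4a1*) and chr17:26508473-26508722 on the minus strand.
Fos: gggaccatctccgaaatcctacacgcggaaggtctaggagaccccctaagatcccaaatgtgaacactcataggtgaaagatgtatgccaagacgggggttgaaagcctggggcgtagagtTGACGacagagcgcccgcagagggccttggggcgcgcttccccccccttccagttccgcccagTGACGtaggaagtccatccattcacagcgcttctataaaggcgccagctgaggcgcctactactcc
Nr4a1: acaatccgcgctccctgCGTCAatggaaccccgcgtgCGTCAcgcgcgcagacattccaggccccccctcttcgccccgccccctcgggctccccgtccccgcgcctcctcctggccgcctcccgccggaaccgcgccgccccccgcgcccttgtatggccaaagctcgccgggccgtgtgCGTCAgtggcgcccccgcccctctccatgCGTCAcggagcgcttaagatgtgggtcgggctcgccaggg
Dusp1: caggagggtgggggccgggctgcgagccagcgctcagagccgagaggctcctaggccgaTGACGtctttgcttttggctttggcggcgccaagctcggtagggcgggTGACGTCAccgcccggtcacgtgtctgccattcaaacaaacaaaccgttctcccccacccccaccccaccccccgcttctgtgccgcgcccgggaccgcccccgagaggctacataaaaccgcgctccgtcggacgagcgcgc

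The core occurs 2 times before *Fos*, 4 times before *Nr4a1* and 3 times before *Dusp1*, where one pair overlaps to form the full palindrome. Of all 32851 promoters of this length in the table, 17.8% held at least 1 core, 3.9% at least 2, 0.688% at least 3 and 0.137% at least 4. Of the 19 immediate early and MAPK target genes tested, 9 were lower at an unadjusted p under 0.05, and 7 of these 9 had a promoter in the table, 6 of them with a core. Of the other 10 genes 9 had a promoter there, 2 of them with a core. The CArG box, the other element searched, stood before 1 of these genes, *Zfp36*, and before 1.47% of all promoters. Only promoters of this length were searched, and *Egr1*, *Ier2* and *Spry4* had no promoter among those used here. A box farther upstream would be missed, so the count cannot show which of these genes lack one. A match is a string of letters, and no binding was measured. The list was chosen with earlier results known and mixes genes of different kinds, and these same p-values split it. The counts of cores are therefore a description only, and a part of cAMP or CREB in the lower values was not tested.

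*Egr1*, the gene of a zinc finger transcription factor, lay at 11.62 and 11.91 at 2 months and at 8.17, 9.97 and 9.29 at 7 months. Its change of -2.62 (SE 0.52, adjusted p = 0.0991), from 11.8 ± 0.205 (SD, n = 2) to 9.14 ± 0.909 (n = 3), did not pass the threshold but was the lowest among named genes with a symbol. *Nr4a1*, which encodes an orphan nuclear receptor, lay at 8.36 and 8.92 at 2 months and at 5.71, 6.36 and 7.22 at 7 months (-2.21, SE 0.45, adjusted p = 0.121). *Fos*, the gene of an AP-1 subunit, lay at 8.18 and 8.5 and then at 5.53, 7.05 and 6.21 (-2.07, SE 0.49, adjusted p = 0.169). *Dusp1*, the MAPK phosphatase gene, lay at 10.46 and 11.20 and then at 8.48, 9.40 and 9.26 (-1.78, SE 0.41, adjusted p = 0.169). In all 4 genes replicate 1 of the 7-mo-old libraries was the lowest, and no library of 7 months reached one of 2 months. The other 5 with an unadjusted p under 0.05 were the AP-1 subunit genes *Junb* (-1.34), *Fosb* (-1.07) and *Jun* (-0.67), *Ier2* (-0.91) and the antiproliferative gene *Btg2* (-0.76), with adjusted p-values of 0.169 to 0.459.

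Over the whole list of 19 the median change was -0.51, with 14 lower and 5 higher and none called, and the 9 lower at an unadjusted p under 0.05 stand against a background of 4.13%. Without p27-/- 2-month replicate 2 the median was -0.27 and 7 were lower at that p, while 3 were called in a fit of the p27-/- libraries alone and 5 with library quality weights. The genes that were higher at an unadjusted p under 0.05 were the MAPK regulator gene *Spred1* (0.44, adjusted p = 0.479) and the ETS factor gene *Etv1* (0.42, adjusted p = 0.475). *Egr1* and *Fos* were at 9.42 to 11.71 and 6.91 to 9.12 in the 3 WT libraries of 2 months, a wide spread among lobes of 1 group. In WT lobes *Dusp1* changed by -1.62, *Nr4a1* by -1.50, *Fos* by -1.10 and *Egr1* by -0.78 with age, and *Junb* by -0.06. The test of the difference gave -1.28 for *Junb* (adjusted p = 0.184), -1.84 for *Egr1* (adjusted p = 0.239) and -0.16 for *Dusp1* (adjusted p = 0.916). The 9 genes lie in GC deciles 6 to 10, and after the GC correction 8 of the list were lower at an unadjusted p under 0.05 with a median of -0.46.

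**Figure D4:**
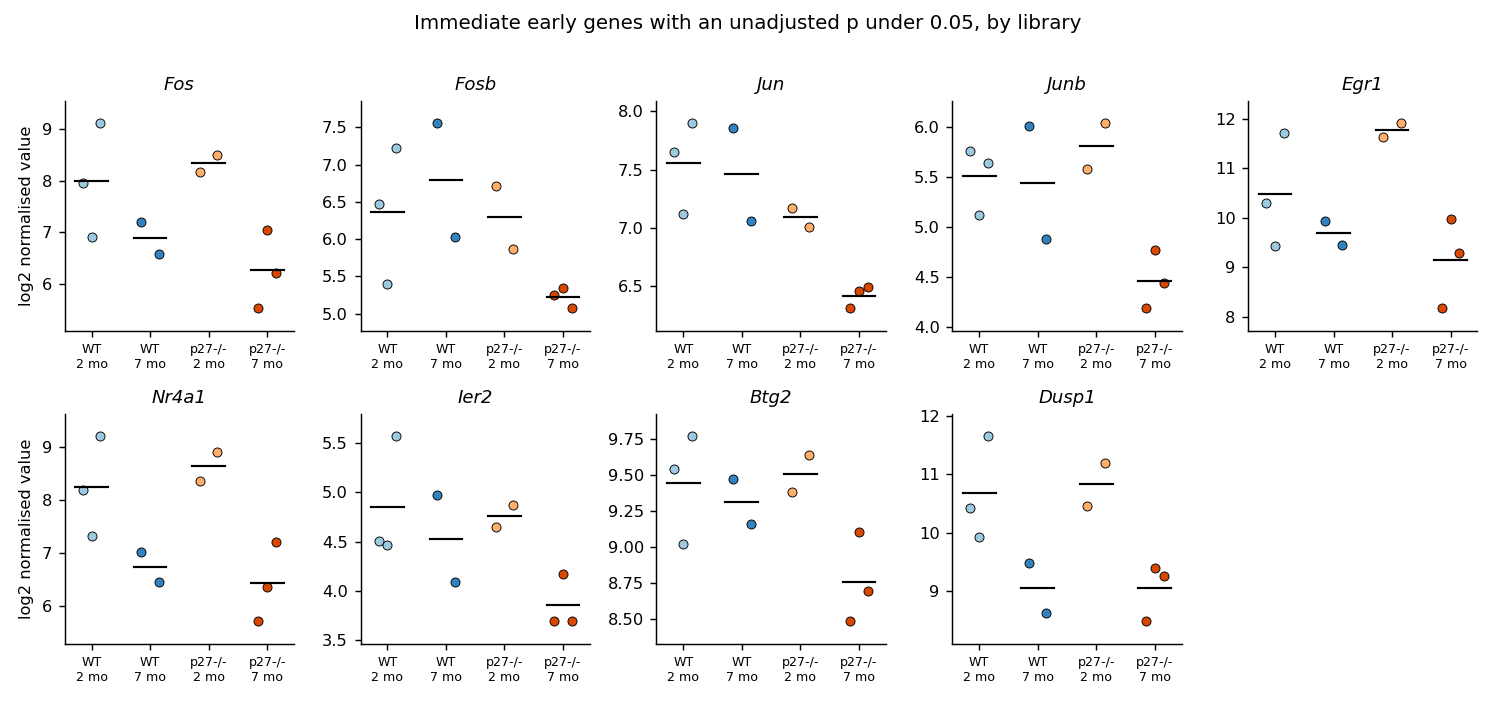
Log2 normalised value (y axis) by library for the 9 immediate early genes with an unadjusted p under 0.05, in WT and p27-/- lobes at 2 and 7 months. Points are libraries and lines group means, with a separate y axis per gene that does not start at 0. The 7-mo-old p27-/- libraries lie below those of 2 months in every panel, and the 3 WT libraries of 2 months spread widely for *Egr1* (9.42 to 11.71).

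Genes of mitosis had mostly positive changes with age in p27-/- lobes, and those of DNA replication had as many negative as positive ones. Of 30 mitosis genes 22 passed the filter, 21 of the 22 had positive changes, and none was called. The median was 0.36, 5 had an unadjusted p under 0.05 (background 5.76%) and in 9 the ages did not overlap (15.3%). The median was 0.22 without p27-/- 2-month replicate 1, 0.24 without 7-month replicate 2 and 0.54 without 2-month replicate 2. *Mki67*, the gene of the proliferation marker Ki-67, lay at 7.88 and 8.53 at 2 months and at 8.89, 9.85 and 8.95 at 7 months (1.02, SE 0.26, adjusted p = 0.190). *Cenpf*, which encodes a kinetochore protein, lay at 6.86 and 7.36 and then at 7.71, 8.73 and 8.04 (1.05, SE 0.26, adjusted p = 0.184). Replicate 2 was the highest of the 7-mo-old libraries for both. The others were *Ckap2l* (1.02, adjusted p = 0.239) and *Hmmr* (0.76), which encode spindle proteins, and the kinetochore motor gene *Cenpe* (0.85, adjusted p = 0.375). *Hmmr* was named after its value was seen. *Top2a*, the topoisomerase gene, changed by 0.47 with overlapping ages.

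In WT lobes *Mki67* fell by 1.33 with age (adjusted p = 0.0378), and the mitosis list had a median of -0.21. The difference for *Mki67* between genotypes was 2.35 (SE 0.365, adjusted p = 0.0658). The summed value of the mitosis genes was 1210 to 1590 at 2 months and 1750 to 3070 at 7 months in p27-/- lobes, against 768 to 826 and 610 to 636 in WT lobes. Without p27-/- 2-month replicate 1 the 5 genes at an unadjusted p under 0.05 became 2, and without 2-month replicate 2 or 7-month replicate 1 they became 8. The 22 tested genes of DNA replication had 11 higher and 11 lower, a median of -0.01, and at an unadjusted p under 0.05 *Ccne2*, the cyclin E2 gene (0.66, adjusted p = 0.340), and *E2f2* (-0.42, adjusted p = 0.495).

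Among cell cycle inhibitors and D cyclins (16 tested, median 0.10, none called) the cyclin-dependent kinase gene *Cdk4* went from 8.89 and 8.94 to 8.35, 8.26 and 8.66 (-0.49, adjusted p = 0.314), and *Ccnd3*, which encodes cyclin D3, changed by -0.47 (adjusted p = 0.5). *Ccng1*, a p53 target gene, changed by 0.54 (adjusted p = 0.410) and *Cdkn1b* by 0.34 (adjusted p = 0.502). *Ccnd2*, at 8.91 in both 2-mo-old libraries and at 8.88, 9.23 and 8.46 at 7 months, showed no step with age (-0.06, SE 0.21), and *Ccnd1* changed by 0.48 (SE 0.28) with overlapping ages. The 13 tested p53 targets and senescence genes had a median of 0.02, and *Ccng1* was the 1 with an unadjusted p under 0.05.

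No gene of melanotroph identity was called in the main fit. *Pomc*, the hormone precursor gene, lay at 15.89 and 16.17 at 2 months and at 15.45, 15.63 and 16.11 at 7 months (-0.30, SE 0.32, adjusted p = 0.803). Its change was -1.04 (limma, adjusted p = 0.0275) under quantile normalisation, the 1 of 13 alternative settings in which it passed the threshold. That setting also turned *mt-Cytb* and *mt-Co1* to lower values. Over the other alternatives that kept all p27-/- libraries the *Pomc* change was negative with adjusted p-values of 0.582 to 0.979. *Tbx19*, the T-box factor gene of the POMC lineage, changed by -0.20 (SE 0.18, adjusted p = 0.760) and *Pcsk2* by 0.24 (SE 0.19, adjusted p = 0.735). *Pax7*, the pioneer factor gene that sets melanotrophs apart from corticotrophs, lay at 11.33 and 11.45 and then at 11.02, 11.04 and 11.12, below in every older library (-0.33, SE 0.14, adjusted p = 0.459). Of the 18 genes of identity and POMC processing 9 were higher and 9 lower, with a median of 0.01. At an unadjusted p under 0.05 2 were higher and 3 lower. Beside *Pax7* they included *Cpe*, the carboxypeptidase that trims cleaved peptides (0.72, adjusted p = 0.295), *Scg5*, the PC2 chaperone 7B2 (0.38, adjusted p = 0.475), and the lineage marker *Tnxb* (-0.50, adjusted p = 0.402).

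The receptor genes of melanotrophs held 1 larger difference. *Gabra2*, which encodes a GABA-A receptor subunit, lay at 9.27 and 9.33 at 2 months and at 10.07, 10.71 and 11.21 at 7 months (1.37, SE 0.32, adjusted p = 0.169). Every older library was above every younger one. Of 13 receptor genes tested 2 were higher at an unadjusted p under 0.05, *Gabra2* among them, and the list's median was 0.14. In WT lobes *Gabra2* changed by -0.38, and the difference was 1.74 (SE 0.45, adjusted p = 0.122).

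Stem cell genes had changes of both signs and none was called. *Sox2* lay at 7.11 in both 2-mo-old libraries and at 7.11, 6.68 and 7.03 at 7 months (-0.17, SE 0.20, adjusted p = 0.831). *Sox9* went from 7.34 and 7.35 to 6.88, 7.01 and 6.63 (-0.51, SE 0.21, adjusted p = 0.452). *Ednrb*, the endothelin receptor B gene, went from 9.55 and 9.26 to 8.51, 8.90 and 8.15 (-0.89, SE 0.20, adjusted p = 0.166), and in WT lobes it fell by 1.29 (adjusted p = 0.0203). *Cdh1*, which encodes E-cadherin, went from 7.41 and 7.52 to 6.34, 7.08 and 6.30 (-0.89, SE 0.23, adjusted p = 0.191), while *Vim*, the vimentin gene, went from 6.50 and 6.38 to 7.09, 7.89 and 7.00 (0.88, SE 0.26, adjusted p = 0.258). The filament gene *Nes* changed by 0.52 (adjusted p = 0.434) and the Hippo pathway coactivator gene *Wwtr1* by 0.46 (adjusted p = 0.363). Of the 19 genes tested 3 were higher and 4 lower at an unadjusted p under 0.05, *Egr1* among the latter, and the median was -0.11.

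No marker of the neighbouring lobes was called. All 9 tested genes of anterior lobe endocrine cells had negative changes (median -0.36). Without p27-/- 2-month replicate 1, or 7-month replicate 2 or 3, 2 of 9 were positive, and the median was -0.65 without the first of these. *Gh*, the growth hormone gene, lay at 11.09 and 11.65 at 2 months and at 9.70, 8.89 and 9.99 at 7 months (-1.84, SE 0.34, adjusted p = 0.0597). *Cga*, the gene of the shared subunit of glycoprotein hormones, lay at 9.41 and 9.79 and then at 6.98, 7.89 and 8.21 (-1.91, SE 0.45, adjusted p = 0.169). In WT lobes *Gh* fell by 2.37 (adjusted p = 0.0175), *Cga* fell by 2.22 (adjusted p = 0.0429), and the list had a median of -1.02. *Pou1f1*, the gene of a factor that specifies some of these cells, changed by -0.51 (SE 0.27). *Prl*, the prolactin gene, was high in the *Xist*-high p27-/- library of each age, at 14.56 and 14.85, and at 11.16, 10.76 and 12.47 in the other p27-/- libraries. WT values of *Prl* overlapped, at 12.99, 11.86 and 13.57 in the *Xist*-low libraries and at 13.97 and 12.97 in the *Xist*-high ones. The summed value of the list in p27-/- lobes was 6310 to 28900 at 2 months and 3230 to 31200 at 7 months. The part of carried-over anterior lobe tissue in other results was not tested.

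All 7 tested posterior lobe genes had positive changes (median 0.38), with 1 at an unadjusted p under 0.05, *Gfap*, the intermediate filament gene of pituicytes and astrocytes (0.77, adjusted p = 0.270). *Aqp4*, the water channel gene, changed by 0.38 (SE 0.28). Their summed value was 1220 to 1240 at 2 months and 1030 to 2240 at 7 months, where replicate 2 was the highest, and without that library 5 of 7 had positive changes with a median of 0.22. Nerve terminal genes (11 tested, median 0.06) held *Nefm* (1.09, adjusted p = 0.228) and *Nefh* (0.52, adjusted p = 0.391), which encode neurofilaments, and *Snap25* (0.53, adjusted p = 0.417) of the exocytosis machinery, which were higher, and the synaptic vesicle gene *Syp* (-0.53, adjusted p = 0.384), which was lower.

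Of 20 macrophage and immune genes 13 were tested and none was called. In p27-/- lobes 12 had positive changes with a median of 0.46 (WT -0.03, with 6 higher and 7 lower). *Ptprc*, which encodes the leukocyte antigen CD45, went from 6.13 and 6.41 to 6.95, 7.45 and 7.30 (0.96, SE 0.20, adjusted p = 0.125). *Lyz2*, the lysozyme gene of macrophages, lay at 5.27 and 5.95 and then at 5.64, 8.10 and 7.70 (1.54, SE 0.53, adjusted p = 0.363), so that replicate 1 of 7 months did not stand above the younger libraries. *Cd68* (0.64), the T cell marker gene *Cd3e* (0.65) and the macrophage marker gene *Emr1* (0.54) also had an unadjusted p under 0.05, 5 in all against 5.76% of all genes. *Cd68*, *Cd3e* and *Emr1* were low at 2 months, at 4.19 and 4.33, 4.29 and 4.40, and 3.93 and 4.01 in that order. *C1qb* and *Csf1r* changed by 0.47 and 0.25 (SE 0.26 and 0.22). The count was 8 without 7-month replicate 1 and fell to 1 without 2-month replicate 1, to 2 without 7-month replicate 2 and to 3 without 2-month replicate 2. The summed value overlapped, at 1010 to 1350 and 962 to 2100. The interferon response genes (13 tested) had a median of -0.18 and 0 with an unadjusted p under 0.05.

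No vessel or matrix gene was called. *Rgs5*, a pericyte marker gene, was near the threshold, going from 8.68 and 8.81 to 10.12, 9.60 and 9.79 (1.09, SE 0.19, adjusted p = 0.0597), and the smooth muscle actin gene *Acta2* changed by 0.72 (adjusted p = 0.368). In WT lobes *Rgs5* changed by -0.48, and the difference was 1.57 (SE 0.27, adjusted p = 0.0658). The 8 tested pericyte and smooth muscle genes had a median of 0.18. The 13 endothelial genes had a median of 0.31 with 11 positive, *Emcn* at an unadjusted p under 0.05 (0.49) and *Pecam1*, which encodes CD31, at 0.35 (SE 0.29). The 18 angiogenic ligand and receptor genes had a median of 0.19. *Vegfa*, the main endothelial growth factor gene, lay at 7.01 and 6.56 and then at 7.24, 7.29 and 7.78 (0.66, SE 0.32, adjusted p = 0.518). *Fgf1* changed by 0.51, *Nrp2* by -0.53 and *Figf*, which encodes VEGF-D, by -0.64 (adjusted p = 0.398 to 0.503). Of 19 matrix genes (median 0.11) the laminin gene *Lamb1* (0.99, adjusted p = 0.228), *Bgn* (0.69) and the fibronectin gene *Fn1* (0.66) were higher and *Lamc1* (-0.45) lower at an unadjusted p under 0.05.

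HIF-1 targets (20 tested) had a median of -0.0035, with *Egln3*, a prolyl hydroxylase gene that hypoxia induces, going from 6.17 and 6.60 to 6.97, 7.34 and 7.40 (0.85, SE 0.22, adjusted p = 0.191), and the glycolysis genes *Pfkfb3* (0.60) and *Hk2* (0.47) at an unadjusted p under 0.05. Notch pathway genes (16 tested) had a median of -0.02, with the receptor gene *Notch2* at -0.56 (adjusted p = 0.233). Cytoskeleton and adhesion genes (21 tested) had a median of -0.23, and 11 were lower without overlap of the ages (background 14.7%). In WT lobes the list had a similar median of -0.27, with 7 higher and 14 lower. At an unadjusted p under 0.05 the kinase genes *Rock1* (0.64, WT -0.29) and *Rock2* (0.49, WT -0.27) were higher in p27-/- lobes. Lower at that p were *Itgb1* (-0.51, WT -0.43), *Pfn1* (-0.49, WT -0.54), *Actg1* (-0.42, WT -0.36) and *Actb* (-0.35, WT -0.31). These 4 lower genes became 10 after rescaling to equal totals without mitochondrial genes and 0 without p27-/- 2-month replicate 2 or 7-month replicate 1. The 4 tested red blood cell genes had a median of -0.81 and the 5 sex-linked genes one of 0.87, with 0 at an unadjusted p under 0.05 in either list.

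**Figure D5:**
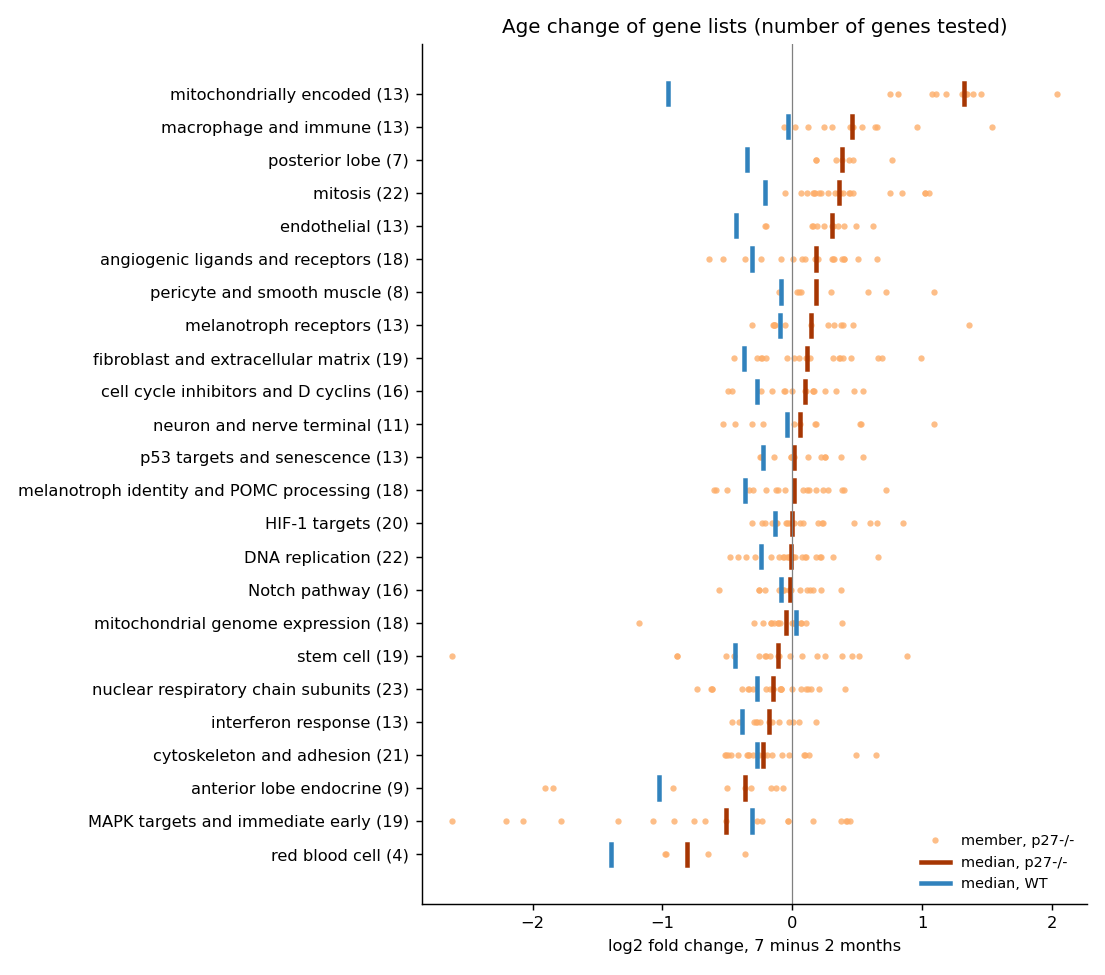
Log2 fold change between 7 and 2 months (x axis) for 24 gene lists (rows, with the number of genes tested), sorted by their median in p27-/- lobes. Orange points are members and dark bars medians in p27-/- lobes, and blue bars are medians in WT lobes. The mitochondrially encoded genes stand at the top (1.32, WT -0.96), and the immediate early genes near the bottom (-0.51, WT -0.31).

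Outside the lists, the genes with the largest differences at a mean of at least 100 and without overlap of the ages were the following. *Luzp2*, a leucine zipper protein gene, lay at 6.54 and 6.38 at 2 months and at 9.24, 8.36 and 7.05 at 7 months (1.75, SE 0.46, adjusted p = 0.201). *Crisp1*, a cysteine-rich secretory protein gene, lay at 6.49 and 7.15 and then at 8.38, 9.13 and 8.12 (1.73, SE 0.31, adjusted p = 0.0597). *Spp1*, the osteopontin gene, lay at 6.03 and 5.27 and then at 6.78, 8.32 and 6.98 (1.71, SE 0.36, adjusted p = 0.125). The 3 older libraries of *Luzp2* spanned more than 2 log2 units, and those of *Crisp1* about 1. In WT lobes they changed by -0.55, -0.03 and -0.73. Among the lower genes were *Srp54c* (-2.22, adjusted p = 0.125), *H3f3c* (-1.84, adjusted p = 0.415), *Gm15542* (-1.41, adjusted p = 0.125) and *Rps27* (-1.18, adjusted p = 0.382), of which *Srp54c*, *H3f3c* and *Rps27* have near-identical copies among which the counting may split reads. Of IDs with no symbol, ENSMUSG00000105361 changed by -3.77 (adjusted p = 0.0991) and ENSMUSG00000101249 by 2.00 (adjusted p = 0.425).

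Some genes just short of the threshold, chosen after their values were seen, belong to nerve cell or lipid biology. *Lpl*, the lipoprotein lipase gene, went from 9.94 and 9.65 to 10.79, 11.12 and 11.03 (1.18, SE 0.21, adjusted p = 0.0597). *Syn1*, the synapsin gene of synaptic vesicles, went from 9.65 and 9.61 to 10.88, 10.73 and 10.44 (1.05, SE 0.19, adjusted p = 0.0597). *Nxph1*, which encodes a neurexin ligand, changed by 1.18 and *Megf11*, an EGF repeat receptor gene, by 0.99 (adjusted p = 0.0597 for each). In WT lobes *Nxph1* rose by 1.19 (adjusted p = 0.0289), while *Lpl*, *Syn1* and *Megf11* changed by -0.37, -0.38 and 0.20.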

How the data were processed

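The study made RNA-seq libraries from dissected intermediate lobes. Per the labels and methods, the authors aligned reads with STAR 2.5.2a to GRCm38 (Ensembl), quantified genes with RSEM and normalised with DESeq2 1.18.1. The deposited values are on a log2 scale, and the transform is not given in the sources used here. Lobes came from separate mice of both sexes.

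Values were fitted with limma 3.58.1 (R 4.3.3), with one coefficient for each of 4 genotype and age groups over 10 libraries, a mean-variance trend and 6 residual degrees of freedom. Tests were two-sided, with Benjamini-Hochberg adjustment over the 16556 genes whose mean on the linear scale reached 10, called at an adjusted p under 0.05. On simulated data with independent noise for each gene, the fit recovered 48% of genes changed by 1 log2 unit and 96% of those changed by 2. It also called 2 unchanged genes. The simulation held no differences that many genes of a library share, so these shares may not hold for the real libraries. Depth is unknown, and no pseudocount entered the main values.

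Named genes were those called, the 10 largest changes in each direction (mean at least 100, ages apart, unadjusted p under 0.05), up to 4 per list at that p, and a set of markers. Some genes that this rule names are not reported here. The members and the 25 gene lists were chosen with earlier results of these data known. *Btg2*, *Ier2*, *Jun*, *Fosb*, *Etv1*, *Spred1*, *Hmmr*, *Top2a*, *Scg5*, *Wwtr1*, *Nes*, *Prl*, *Pou1f1*, *Aqp4*, *C1qb*, *Csf1r*, *Emr1*, *Actb*, *Pfn1*, *mt-Rnr1*, *mt-Rnr2*, *Lpl*, *Syn1*, *Nxph1* and *Megf11* were named after their values were seen. GC content came from a mouse annotation of an older build, matched by name. Promoters came from RefSeq.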

Additional observations from a re-analysis of the deposited data

How the results depend on the processing

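The count of 8 called genes was 5 with a pseudocount of 1 or of 10, 4 with a minimum mean of 50, 4 with quantile normalisation, 4 without the mean-variance trend, 3 with *Xist* as a covariate, 2 after rescaling to equal totals without mitochondrial genes, 29 in a fit of the 5 p27-/- libraries alone and 172 with library quality weights. With no filter on low values limma called 0 of 39021 genes (smallest adjusted p = 0.0724, 3136 at an unadjusted p under 0.05). With 1 library left out the count ran from 0 (without p27-/- 2-month replicate 2, 696 genes at an unadjusted p under 0.05) to 32 (without WT 2-month replicate 3). The count of 0 for the difference between genotypes became 6 after rescaling and 39 with quality weights, and ran from 0 to 47 (without p27-/- 7-month replicate 3) with 1 library left out. Where 1 library of 2 months remained, it was assumed to vary like the other groups. Rescaling moved the median of all genes to -0.107 and the split at an unadjusted p under 0.05 from 953 higher and 683 lower to 509 and 1491. The labels give replicate numbers but do not say that these pair the libraries. Correlations of deviations between p27-/- ages were 0.0896 and -0.181 for the same number. With 2 libraries of 2 months their deviations mirror each other, so these values cannot decide on pairing. The replicate block called 9 genes, 4 of them among the 8. Directions turned for *mt-Cytb* (-0.065) and *mt-Co1* (-0.27) with quantile normalisation, for *Prl* with *Xist* as a covariate (0.64), with that and the GC correction, chosen after seeing the data (0.58), and without p27-/- 2-month replicate 2 (1.53) or 7-month replicate 1 (0.80; range with 1 library left out -1.87 to 1.53), and for *Ccnd2* with the replicate block (0.11) and without 7-month replicate 3 (0.14; range -0.24 to 0.14). The cause was not tested. None of the 8 called genes changed direction under any alternative run.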
